A study of Mus musculus with 30 samples.

Results

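The genes of this report are the complement and coagulation factors that the liver secretes into the blood. Of 34 listed genes, 32 had a probe set of their own on the array, out of 18193 genes measured in all. C3, the central component of complement, and C4b, which acts just upstream of it, had no probe set annotated to that gene alone and were not analysed here. The members were chosen by name, as liver-secreted complement and clotting genes, with earlier results of these data known. Counts of members set beside shares of all genes are therefore a description, not a test of the list. Each member is represented by its brightest single-gene probe set (by mean over the 30 arrays).

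Complement and coagulation are cascades of proteins that circulate mostly as inactive precursors, each activated by cleavage or binding in the step before it. The complement cascade starts through antibody (the classical pathway), through sugar-binding lectins or through the alternative pathway, and ends in a pore made of the terminal components. Coagulation converts prothrombin to thrombin, which cuts fibrinogen to fibrin, and antithrombin, protein C and plasmin hold the clot in check. Hepatocytes make most of these proteins, so the liver's messenger RNA sets much of their supply.

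RNA was measured in livers of adult male mice on a C57BL/6J background. Mice of 3 genotypes, namely wild type, hCAR/hPXR (humanised for the nuclear receptors CAR and PXR) and CARko/PXRko (deleted for both), received corn oil, 1,4-dichlorobenzene (DCB, a moth repellent and deodorant, 600 mg/kg) or CPA (cyproterone acetate, an antiandrogen with a steroid structure, 160 mg/kg) daily by oral gavage. PXRko mice, deleted for PXR, received corn oil only. There were 3 arrays in each of these 10 groups, 30 in all. CAR and PXR are receptors that switch on drug-metabolizing genes, and the design asks which responses need them and which differ with the human forms. Corn oil and DCB groups are labelled 3 days. For CPA the label reads 3 days in the CARko/PXRko group and 6 days in the others. The protocol, however, gives 3 days for all. Labelled duration and genotype therefore cannot be told apart in comparisons of CPA with CARko/PXRko. No corn oil group has the longer label. For hCAR/hPXR and for wild type, drug and labelled duration therefore cannot be told apart in any difference of CPA from corn oil given below. The design states 5 mice per group and the labels do not say that each array is a separate mouse, so p-values here reflect only the spread among these samples, which may be technical.

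Values are log2 signals. Differences are log2 differences of group means ± the standard error of the limma fit, with 3 arrays in each group, and a gene was called at a Benjamini-Hochberg adjusted p under 0.05 over the 12795 genes tested. All 32 members lay above the array median (5.36 to 5.44) on all 30 arrays, with values from 8.61 to 14.84, and all passed the filter on dim genes. The brightest signal on an array was 15.21 to 15.34, and Fgb, Fgg and Serpinc1 lay within about a log2 unit of it; whether this compresses their differences was not tested. Albumin (Alb) read 15.09 to 15.30 and transthyretin (Ttr) 14.92 to 15.10 on every array. Nr1i3, which encodes mouse CAR, read 9.32 to 10.60 on wild type arrays and 9.58 to 10.09 on PXRko arrays, against 6.05 to 6.82 in hCAR/hPXR and 6.10 to 6.86 in CARko/PXRko. Nr1i2, which encodes mouse PXR, read 6.75 to 8.06 in wild type and at most 4.97 in the other genotypes. Skeletal muscle transcripts stood out on 4 arrays, where the median of 10 muscle genes was 7.59 (corn oil CARko/PXRko replicate 2), 1.68 (corn oil PXRko replicate 3), 2.51 (DCB CARko/PXRko replicate 2) and 7.32 (DCB CARko/PXRko replicate 3) log2 units above wild type corn oil. The last of these also carried brown fat genes (8.18 above) and adrenal cortex genes (4.23), and DCB CARko/PXRko replicate 2 carried squamous epithelium genes (3.73). Below, "the muscle arrays" are these 4, and several main results and list counts that rest on them are given with and without them. Counts at an unadjusted p, counts of arrays that do not overlap, and correlations are given with all arrays only.

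The promoters of 6 members that the results turn on are printed here: the 3 fibrinogen chains, which are built into one protein, and C6, Klkb1 and C8a, which differed most between treatments. RefSeq windows were matched for 25 of the 32 members. Each sequence is the 250 bases just before the RefSeq start site in GRCm38.p6, 5′ to 3′ on the gene's own strand. Capitals mark matches, on either strand, to any of 4 short motifs of factors active in hepatocytes: AGGTCA (nuclear receptors), GTTAAT (HNF1), TTGCNNAA (C/EBP) and TTCNNNGAA (STAT).
Fga, chr3:83025903-83026152, plus strand: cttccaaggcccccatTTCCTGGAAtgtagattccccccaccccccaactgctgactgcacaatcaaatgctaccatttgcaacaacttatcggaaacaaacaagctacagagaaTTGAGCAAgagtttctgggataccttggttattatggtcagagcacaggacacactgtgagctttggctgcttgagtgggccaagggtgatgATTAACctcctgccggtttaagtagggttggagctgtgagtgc
Fgb, chr3:83049864-83050113, minus strand: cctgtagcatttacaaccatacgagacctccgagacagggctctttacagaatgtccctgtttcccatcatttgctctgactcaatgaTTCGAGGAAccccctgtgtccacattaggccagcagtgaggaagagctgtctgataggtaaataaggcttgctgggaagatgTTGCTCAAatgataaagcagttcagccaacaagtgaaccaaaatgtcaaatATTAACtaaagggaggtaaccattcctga
Fgg, chr3:83007474-83007723, plus strand: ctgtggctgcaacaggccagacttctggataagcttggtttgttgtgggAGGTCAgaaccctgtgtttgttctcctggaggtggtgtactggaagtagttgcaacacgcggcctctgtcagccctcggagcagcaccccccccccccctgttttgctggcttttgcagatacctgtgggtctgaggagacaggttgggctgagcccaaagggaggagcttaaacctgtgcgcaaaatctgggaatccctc
C6, chr15:4726960-4727209, plus strand: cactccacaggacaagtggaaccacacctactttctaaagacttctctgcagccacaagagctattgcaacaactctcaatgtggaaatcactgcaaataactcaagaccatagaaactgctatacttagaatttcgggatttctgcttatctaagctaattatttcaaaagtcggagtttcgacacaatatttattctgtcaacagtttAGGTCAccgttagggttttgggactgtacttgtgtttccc
Klkb1, chr8:45294836-45295085, minus strand: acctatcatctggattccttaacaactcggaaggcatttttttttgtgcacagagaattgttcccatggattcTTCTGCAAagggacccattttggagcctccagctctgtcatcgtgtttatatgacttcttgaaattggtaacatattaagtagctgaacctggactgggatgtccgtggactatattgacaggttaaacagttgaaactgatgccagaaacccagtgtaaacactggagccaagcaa
C8a, chr4:104876399-104876648, minus strand: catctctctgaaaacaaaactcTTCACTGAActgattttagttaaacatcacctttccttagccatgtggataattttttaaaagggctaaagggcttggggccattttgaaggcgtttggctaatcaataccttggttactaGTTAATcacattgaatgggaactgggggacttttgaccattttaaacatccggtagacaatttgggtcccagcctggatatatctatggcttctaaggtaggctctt

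The Fga and Fgb windows shared an HNF1 match, beginning 43 and 29 bases before the start site, together with a C/EBP and a STAT match, whereas the Fgg window held only AGGTCA. C6 also held AGGTCA, C8a held an HNF1 and a STAT match, and Klkb1 held only a C/EBP match. Over the whole window of 300 bases (250 before to 50 after the start), AGGTCA was found in 11 of the 25 members (44.0%) and in 16.0% of all 27025 genes with a window. GTTAAT was found in 7 members (28.0%) and 7.20% of genes, TTGCNNAA in 7 members (28.0%) and 10.8%, and TTCNNNGAA in 6 members (24.0%) and 8.47%. A match is a description of these letters only. Several members are neighbours: no other gene lies between Fgg and Fga on chromosome 3, Cfb and C2 on chromosome 17, C8b and C8a on chromosome 4, or F7 and F10 and F11 and Klkb1 on chromosome 8.

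Under DCB, complement and coagulation transcripts were broadly lower. In hCAR/hPXR mice 19 of the 32 members fell and none rose, against a background of 7.64% of all genes called in either direction and 4.35% called lower. All 32 differences there were below 0, against 53.2% of genes, and 24 had a lower level at an unadjusted p under 0.05, against 13.6%. In wild type mice 31 of 32 differences were below 0 (51.9% of all genes), but 0 members were called, where 0.735% of all genes were called and 0.125% called lower. There 15 members had an unadjusted p under 0.05 with a lower level, against 4.76% of genes. In mice lacking both receptors 31 of 32 differences were below 0 (48.7% of genes), and 0 members were called where 0.117% of genes were called and 0 genes called lower. Among the members 22 had a lower level at an unadjusted p under 0.05, against 3.63% of genes. Of the 3 DCB arrays in that genotype, replicates 2 and 3 are muscle arrays, so its counts and median rest in part on them. Differences and the members' median without them are given below. The median difference of the members was -0.33, -0.49 and -0.40 in the wild type, hCAR/hPXR and CARko/PXRko groups, where the median of all genes was -0.01, -0.02 and 0.01.

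The 3 genotypes share no arrays, so each is a separate look at the same genes. A lower mean under DCB in all 3 genotypes was seen for 30 of 32 members, against 24.9% of all genes; the exceptions were Mbl2 and Pros1. Without the muscle arrays, which leaves 1 DCB array in CARko/PXRko, it was 28 (25.02% of genes), and F11, Hc, Masp1 and Mbl2 were the exceptions. For 10 members the 3 DCB arrays lay below the 3 corn oil arrays in every genotype, against 0.930% of genes: C2, Mbl1, Cfb, Cfi, C8a, F2, F12, Klkb1, Serpinc1 and Serpind1. For 23 members this held in at least 2 genotypes, against 6.47% of genes. Without the muscle arrays the CARko/PXRko differences of the 10 members ranged from -0.71 (Klkb1) to -0.11 (Serpind1, which gave -0.56 with them). Within a genotype, DCB arrays lay wholly below corn oil arrays for 20 members in wild type (11.5% of genes), 23 in hCAR/hPXR (13.8%) and 17 in CARko/PXRko (5.60%). The sizes also ran in parallel over the members: Pearson's r was 0.83 (Spearman's rho 0.70) between wild type and hCAR/hPXR, 0.76 (0.72) between wild type and CARko/PXRko and 0.86 (0.77) between hCAR/hPXR and CARko/PXRko. These correlations are across 32 genes of the same livers, which are not independent, and are a description only.

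**Figure D1:**
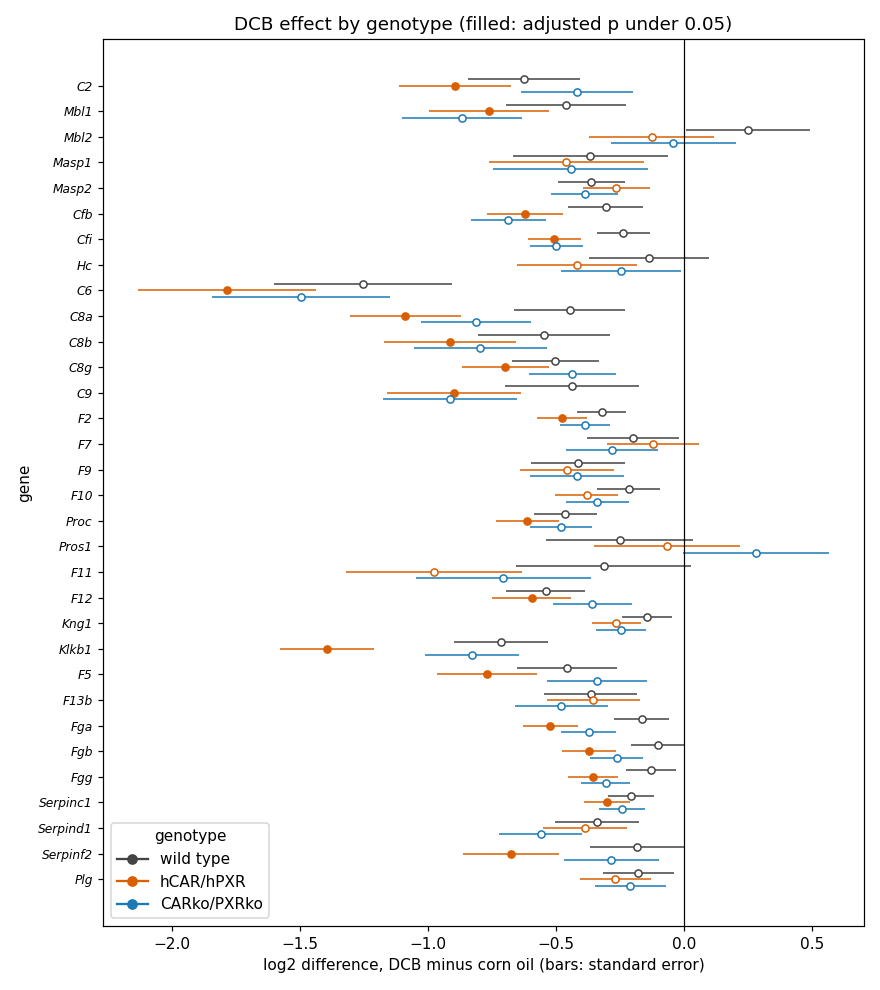
Log2 difference of DCB from corn oil (x axis) for the 32 members (y axis) in the 3 genotypes (colours); points are differences of means of 3 arrays, bars are standard errors and filled points have an adjusted p under 0.05. Nearly all points lie left of 0 in every genotype, and the 19 filled points are all from hCAR/hPXR mice.

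Averaging the DCB difference over the 3 genotypes, a contrast that was chosen after the data had been seen, gave the most precise value for each gene. In that contrast 26 members fell and none rose, against 13.4% of all genes called and 6.89% called lower, and the median was -0.42 against -0.01 over all genes. The largest fall was that of C6, 2.85-fold, and the next Klkb1, 1.97-fold; the other 24 ranged from a fall of 0.78 (C8a) to one of 0.22 (Kng1) on the log2 scale. Without the 4 arrays with muscle transcripts 20 members were called, with a median of -0.35. The 6 calls lost were F10, F11, Fgb, Kng1, Serpind1 and Serpinf2, with adjusted p of 0.061 to 0.27. When each array was left out in turn, 25 of the 26 were called in every fit; F11 was called in 10 of 18.

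**Figure D2:**
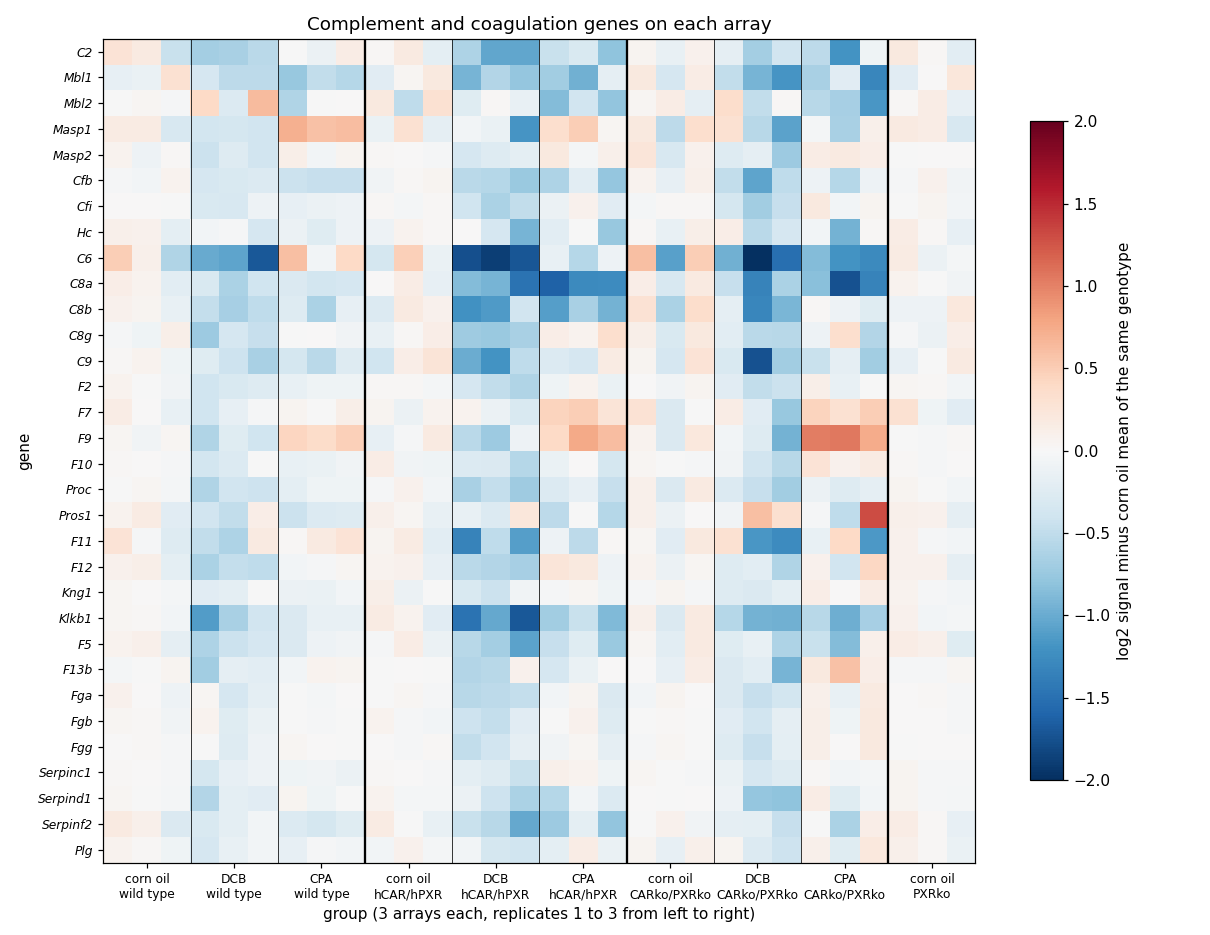
Log2 signal of each member (rows) on each of the 30 arrays (columns, 3 per group) minus the corn oil mean of the same genotype; blue is lower and red is higher. The DCB columns are blue for most members in all 3 genotypes, C6 most deeply, while F9 is red in the CPA columns.

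The membrane attack complex is the pore that ends the complement cascade, and one of its components, C6, gave the largest difference of all members under DCB. C5 (Hc) starts its assembly, C6 joins next, C8 is built of the chains C8a, C8b and C8g, and C9 lines the pore. Averaged over genotypes, 5 of these 6 fell under DCB, and the same 5 fell in hCAR/hPXR mice alone; Hc did not pass either test.

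C6 read 11.47, 11.09 and 10.38 in wild type mice on corn oil and 9.97, 9.92 and 9.28 on DCB. In hCAR/hPXR mice it read 10.66, 11.49 and 10.87 on corn oil and 9.25, 9.12 and 9.29 on DCB. In the CARko/PXRko genotype it read 11.23, 9.54 and 11.12 on corn oil and 9.67, 8.61 and 9.13 on DCB. The groups did not overlap in wild type and hCAR/hPXR mice. In mice lacking both receptors they did, where corn oil replicate 2, an array with muscle transcripts, was as low as the DCB arrays. The difference was -1.25 ± 0.35 in wild type (adjusted p = 0.11), -1.79 ± 0.35 in hCAR/hPXR (adjusted p = 0.0031) and -1.50 ± 0.35 in CARko/PXRko (adjusted p = 0.092), and -1.51 ± 0.20 over the 3 (adjusted p = 2.3e-05). Without the muscle arrays the wild type difference was called (adjusted p = 0.014), with the same value.

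C8a, the chain of C8 that inserts into the target membrane, read 13.42, 13.35 and 13.08 in wild type on corn oil and 12.97, 12.66 and 12.88 on DCB. In hCAR/hPXR mice it read 13.24, 13.38 and 13.07 on corn oil against 12.37, 12.31 and 11.76 on DCB, and in CARko/PXRko mice 13.34, 12.89 and 13.38 against 12.75, 11.86 and 12.56. No DCB array reached the corn oil arrays of its genotype. The fall was 1.09 ± 0.22 on the log2 scale in the hCAR/hPXR group (adjusted p = 0.0035), and over the 3 genotypes the difference was -0.78 ± 0.12 (adjusted p = 1.8e-04).

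Its neighbour C8b fell by 0.91 ± 0.26 in the hCAR/hPXR group (adjusted p = 0.032), where DCB replicate 3 (11.48) stood above the other DCB arrays (10.64 and 10.73) and close to the lowest corn oil array (11.59). C8g fell by 0.70 ± 0.17 (adjusted p = 0.014), with DCB arrays at 12.48 to 12.57 and corn oil arrays at 13.07 to 13.35. C9 fell by 0.90 ± 0.26 (adjusted p = 0.037), from 13.03, 13.56 and 13.69 to 12.43, 12.23 and 12.91. Hc read 13.19 to 13.35 on corn oil and 13.29, 12.94 and 12.36 on DCB in hCAR/hPXR mice. These Hc groups overlapped, and its difference over the 3 genotypes was -0.27 ± 0.14 (adjusted p = 0.21).

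Among the initiators, C2 is the serine protease of the classical and lectin pathway convertase, Mbl1 and Mbl2 are mannose-binding lectins, and Masp1 and Masp2 are the proteases they carry. C2, Mbl1 and Masp2 fell over the 3 genotypes, and C2 and Mbl1 in hCAR/hPXR mice. C2 read 10.74, 10.65 and 10.03 in wild type mice on corn oil against 9.79, 9.83 and 9.93 on DCB, and 10.68, 10.85 and 10.46 against 10.05, 9.63 and 9.63 in hCAR/hPXR mice, where it fell by 0.89 ± 0.22 (adjusted p = 0.014). All 3 of its probe sets gave lower means under DCB in each genotype.

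Mbl1 read 11.92, 12.18 and 12.34 in hCAR/hPXR mice on corn oil and 11.22, 11.56 and 11.38 on DCB, a fall of 0.76 ± 0.23 (adjusted p = 0.046). Mbl2, the other lectin, read 13.64, 12.93 and 13.75 on corn oil and 13.21, 13.46 and 13.29 on DCB, and its groups overlapped in all 3 genotypes. Over the 3 genotypes the difference was -0.70 ± 0.13 for Mbl1 (adjusted p = 0.0012) and 0.03 ± 0.14 for Mbl2 (adjusted p = 0.93). The difference between these 2 genes was not tested. Masp2 gave -0.34 ± 0.08 (adjusted p = 0.0039) and Masp1 -0.42 ± 0.17 (adjusted p = 0.12).

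Factor B (Cfb), the protease of the alternative pathway, and factor I (Cfi), which inactivates the products of C3 and C4, both fell in hCAR/hPXR mice and over the 3 genotypes. Cfb read 12.59, 12.69 and 12.73 on corn oil and 12.13, 12.10 and 11.92 on DCB in hCAR/hPXR mice, a fall of 0.62 ± 0.15 (adjusted p = 0.012). Cfi varied little between replicates: 13.83, 13.83 and 13.81 in wild type on corn oil against 13.53, 13.51 and 13.73 on DCB, 13.76, 13.69 and 13.75 against 13.34, 13.10 and 13.25 in hCAR/hPXR, and 13.77, 13.83 and 13.83 against 13.46, 13.12 and 13.35 in CARko/PXRko. Every DCB array lay below every corn oil array of its genotype. The difference was -0.24, -0.51 (adjusted p = 0.0044) and -0.50 in the 3 genotypes, each ± 0.10, and -0.41 ± 0.06 over them (adjusted p = 6.0e-05).

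**Figure D3:**
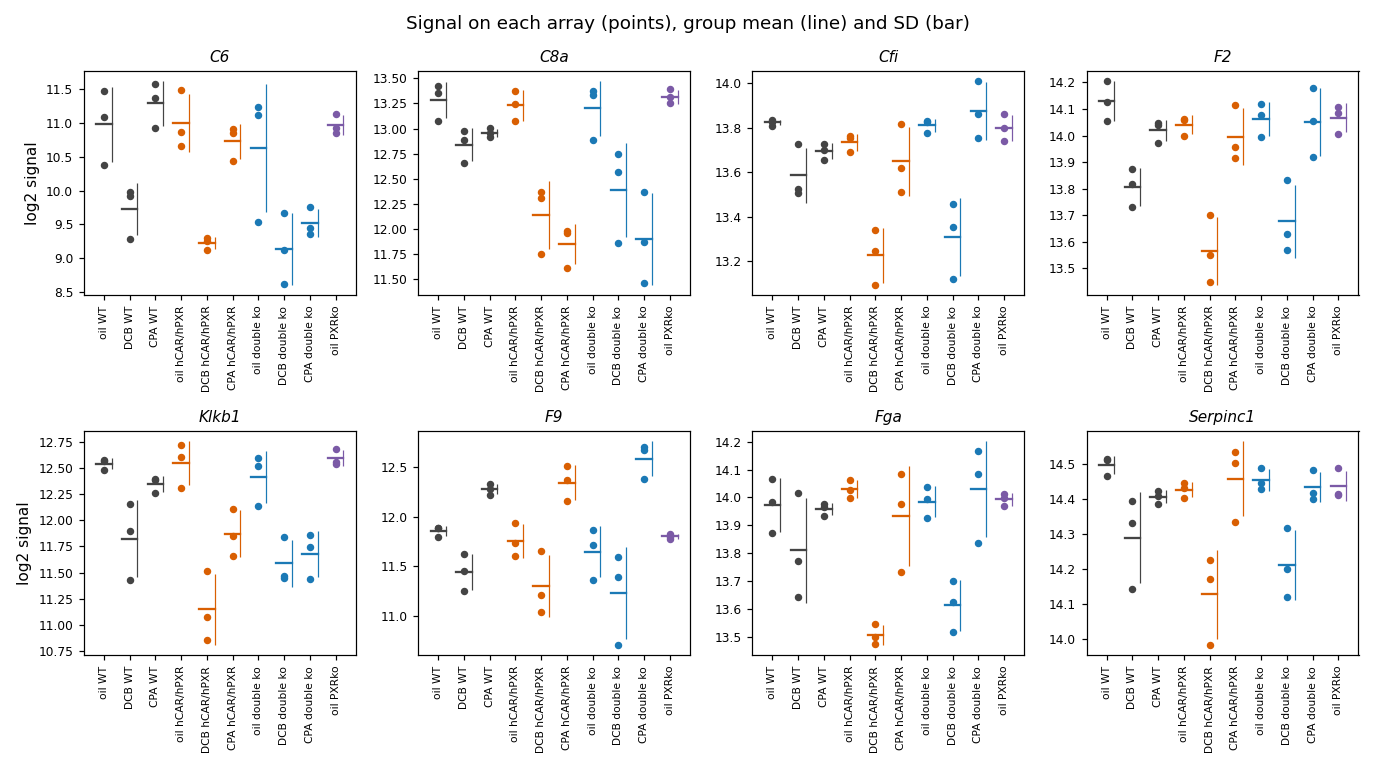
Log2 signal on each array (points) for 8 members in the 10 groups, with the group mean (line) and SD (bar); vertical scales differ between genes and do not start at 0. DCB groups lie below corn oil groups in each genotype for C6, C8a, Cfi, F2, Klkb1 and Serpinc1, C8a is also low under CPA in hCAR/hPXR and CARko/PXRko ("double ko") mice, and F9 is highest under CPA.

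The vitamin K dependent proteins are serine protease precursors and cofactors whose glutamates are carboxylated: prothrombin (F2), factors VII, IX and X (F7, F9, F10), protein C (Proc), which becomes an anticoagulant enzyme, and its cofactor protein S (Pros1). Of these 6, F2, F9, F10 and Proc fell over the 3 genotypes, and F2 and Proc in hCAR/hPXR mice.

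F2 read 14.21, 14.13 and 14.05 in wild type mice on corn oil and 13.73, 13.82 and 13.87 on DCB. In hCAR/hPXR mice the values were 14.06, 14.06 and 14.00 against 13.70, 13.55 and 13.45, and in CARko/PXRko mice 14.08, 13.99 and 14.12 against 13.83, 13.57 and 13.63. The groups did not overlap in any genotype. The difference was small but precise, -0.32, -0.48 (adjusted p = 0.0043) and -0.39 ± 0.10 in the 3 genotypes and -0.39 ± 0.06 over them (adjusted p = 5.0e-05), which is 1.31-fold lower.

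Proc, on the anticoagulant side, read 13.07, 13.18 and 13.04 in hCAR/hPXR mice on corn oil and 12.44, 12.63 and 12.39 on DCB, a fall of 0.61 ± 0.12 (adjusted p = 0.0036). Over the 3 genotypes it differed by -0.52 ± 0.07 (adjusted p = 3.0e-05). F9 differed by -0.43 ± 0.11 (adjusted p = 0.0081) and F10 by -0.31 ± 0.07 (adjusted p = 0.0048) over the 3 genotypes. F7 gave -0.20 ± 0.10 (adjusted p = 0.23), and its DCB arrays overlapped the corn oil arrays in every genotype. Pros1 read 8.66 to 10.46 over all arrays and gave -0.01 ± 0.16 (adjusted p = 0.98).

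The contact system begins coagulation at surfaces and releases bradykinin: factor XII (F12) and plasma kallikrein (Klkb1) activate each other, kallikrein cuts kininogen (Kng1), and factor XI (F11) passes the signal on to factor IX. All 4 fell over the 3 genotypes, and F12 and Klkb1 in hCAR/hPXR mice. Klkb1 read 12.57, 12.57 and 12.48 in wild type mice on corn oil and 11.43, 11.90 and 12.15 on DCB. In hCAR/hPXR mice it read 12.72, 12.61 and 12.31 against 11.07, 11.52 and 10.86, and in CARko/PXRko mice 12.51, 12.13 and 12.60 against 11.84, 11.47 and 11.45.

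No DCB array of Klkb1 reached a corn oil array of its genotype. The difference was -0.72 ± 0.18 in wild type (adjusted p = 0.072), -1.39 ± 0.18 in hCAR/hPXR (adjusted p = 6.1e-05), -0.83 ± 0.18 in CARko/PXRko (adjusted p = 0.080) and -0.98 ± 0.11 over the 3 (adjusted p = 1.4e-06). F11, which lies beside Klkb1, spread more: in hCAR/hPXR mice it read 10.57, 10.67 and 10.31 on corn oil and 9.18, 10.02 and 9.42 on DCB, a difference of -0.98 ± 0.34 that was not called (adjusted p = 0.083). Over the 3 genotypes F11 differed by -0.67 ± 0.20 (adjusted p = 0.026). This call was lost on leaving out any 1 of 8 arrays, with adjusted p of 0.053 to 0.059, and without the muscle arrays the value was -0.37 (adjusted p = 0.27). The 8 were corn oil CARko/PXRko replicate 3, corn oil hCAR/hPXR replicate 2, corn oil wild type replicate 1, DCB CARko/PXRko replicates 2 and 3, DCB hCAR/hPXR replicate 1 and DCB wild type replicates 1 and 2.

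F12 fell by 0.59 ± 0.15 in the hCAR/hPXR group (adjusted p = 0.019), from 12.20, 12.23 and 11.97 to 11.59, 11.55 and 11.47, and did not overlap between DCB and corn oil in any genotype. Kng1 differed by -0.22 ± 0.06 over the 3 genotypes (adjusted p = 0.010). Factor V (F5), the cofactor of factor Xa, fell by 0.77 ± 0.20 in the hCAR/hPXR group (adjusted p = 0.018), from 12.31, 12.49 and 12.21 to 11.78, 11.67 and 11.27. F13b, the carrier subunit of the factor that cross-links fibrin, differed by -0.40 ± 0.11 over the 3 genotypes (adjusted p = 0.012), and in hCAR/hPXR mice DCB replicate 3 (12.45) lay above the corn oil arrays (12.36 to 12.38) while the other DCB arrays read 11.78 and 11.82.

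Fibrinogen is a hexamer of paired chains from Fga, Fgb and Fgg, and all 3 chains fell in hCAR/hPXR mice and over the 3 genotypes. Fga read 14.03, 14.06 and 14.00 in hCAR/hPXR mice on corn oil and 13.47, 13.50 and 13.55 on DCB, a fall of 0.52 ± 0.11 (adjusted p = 0.0045). Fgb read 14.68, 14.59 and 14.56 against 14.19, 14.14 and 14.38, a fall of 0.37 ± 0.10 (adjusted p = 0.031). Fgg read 14.65, 14.63 and 14.67 against 14.16, 14.27 and 14.46, a fall of 0.35 ± 0.10 (adjusted p = 0.026). No array overlapped for any chain.

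In wild type mice DCB replicate 1 read as high as corn oil for all 3 chains (14.02, 14.64 and 14.59 for Fga, Fgb and Fgg), and the differences were -0.16, -0.10 and -0.13. Mice of the CARko/PXRko genotype gave -0.37, -0.26 and -0.31, with no overlap for any chain. Over the 3 genotypes the chains differed by -0.35 ± 0.06, -0.24 ± 0.06 and -0.26 ± 0.06 (adjusted p = 4.8e-04, 0.0080 and 0.0027). Whether the promoter matches printed above bear on these differences was not tested.

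Antithrombin (Serpinc1) and heparin cofactor II (Serpind1) inhibit thrombin, antiplasmin (Serpinf2) inhibits plasmin, and plasminogen (Plg) is plasmin's precursor. Serpinc1 read 14.44, 14.43 and 14.40 in hCAR/hPXR mice on corn oil and 14.22, 14.17 and 13.98 on DCB, a fall of 0.30 ± 0.09 (adjusted p = 0.043, or 0.056 without the muscle arrays), and its groups did not overlap in any genotype. Serpinf2 fell by 0.68 ± 0.19 in the hCAR/hPXR group (adjusted p = 0.028), from 12.85, 12.68 and 12.54 to 12.25, 12.14 and 11.67. Over the 3 genotypes Serpinc1 differed by -0.25 ± 0.05 (adjusted p = 0.0023), Serpind1 by -0.43 ± 0.09 (adjusted p = 0.0036), Serpinf2 by -0.38 ± 0.11 (adjusted p = 0.019) and Plg by -0.22 ± 0.08 (adjusted p = 0.072). Genes for clotting factors and genes for their inhibitors were therefore both among those that fell.

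Whether the receptors changed the DCB response was asked by comparing its size between genotypes. The fall was largest in hCAR/hPXR mice for 24 members, in CARko/PXRko for 7 and in wild type for 1. The same split over all genes is not given here. Of all genes 13.6% were lower under DCB at an unadjusted p under 0.05 in hCAR/hPXR, against 4.76% in wild type and 3.63% in CARko/PXRko. The order of the genotypes is thus not shown to be particular to these members. No member was called for a difference between genotypes in any of the 3 comparisons of DCB effects, where at most 1 gene of all tested was called (0.00782% of genes). At an unadjusted p under 0.05, 3 members differed between hCAR/hPXR and wild type, 0 between CARko/PXRko and wild type and 1 between hCAR/hPXR and CARko/PXRko, against 3.11%, 2.53% and 6.78% of genes. The 3 were Klkb1 (-0.68 ± 0.26), C8a (-0.64 ± 0.31) and Fga (-0.36 ± 0.15), all with adjusted p of 1.0, and the last was Klkb1 again (-0.57 ± 0.26, adjusted p = 0.71). The calls in hCAR/hPXR mice alone are thus not shown to be particular to that genotype.

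The hCAR/hPXR count depended on single arrays and on how the spread was estimated. It was 13, 7 and 12 without corn oil replicates 1, 2 and 3 and 14, 15 and 14 without DCB replicates 1, 2 and 3, and C6, C8a, Cfi, F2, Fga, Klkb1 and Proc were called in every one of these fits. It was 2 when only the 6 arrays compared entered the fit. Counts of all genes moved too: 978 in the main fit, 337 to 1056 when 1 array was left out and 82 with only the arrays compared. In CARko/PXRko mice, where both muscle-bearing DCB arrays lie, 9 members were called without DCB replicate 1 and 5 without corn oil replicate 2. There all genes called ran from 6 to 72 when 1 array was left out, against 15 in the main fit. Without the muscle arrays, which leaves 1 DCB array there, the members' median difference was -0.26.

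On corn oil no difference between genotypes was called in these genes, though most members were slightly lower in CARko/PXRko mice. No member was called in hCAR/hPXR, CARko/PXRko or PXRko against wild type, or in CARko/PXRko against PXRko, where 0.0234%, 0.0391%, 0.0234% and 0.0156% of all genes were called. At an unadjusted p under 0.05 there were 0, 1, 0 and 0 members, against 1.45%, 3.31%, 1.72% and 2.76% of genes, the one being Pros1, 9.26, 9.04 and 9.17 in CARko/PXRko against 9.86, 9.96 and 9.56 in wild type (-0.63 ± 0.29, adjusted p = 1.0). The members' medians were -0.07, -0.13, 0.00 and -0.12, against -0.003, -0.01, 0.003 and -0.01 over all genes. Differences were below 0 for 23, 29, 16 and 27 of the 32 members. Arrays lay wholly lower for 3, 5, 3 and 7 members and wholly higher for 2, 0, 2 and 0. The shares of all genes for these counts are not given here. A mostly shared sign was thus also seen without treatment.

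Few of these genes were called under CPA. In wild type mice 0 members were called (1.12% of all genes), in hCAR/hPXR mice 4 fell (4.42% of genes called, 2.90% lower), and in CARko/PXRko mice 2 fell and 1 rose (5.49% called, 3.31% lower and 2.18% higher). The members' medians were -0.10, -0.16 and -0.08, against -0.01, -0.02 and -0.01 over all genes. In the wild type, hCAR/hPXR and CARko/PXRko groups differences were below 0 for 23, 25 and 19 members. They were above 0 for 9, 7 and 13. An unadjusted p under 0.05 was seen for 4, 12 and 9 members, of which 2, 10 and 7 were lower. CPA arrays lay wholly below corn oil arrays for 13, 9 and 3 members and wholly above them for 2, 2 and 3. Shares of all genes for these member counts are not given here. No member was called for a difference of the CPA effect from that in wild type mice, where 0.0625% of all genes were called for hCAR/hPXR and 0.0703% for CARko/PXRko. At an unadjusted p under 0.05 there were 1 (4.91% of genes) and 3 members (7.56%). CPA and DCB are set against the same corn oil arrays, and their values are given side by side with no comparison.

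C8a was lowest of all groups in CPA-treated hCAR/hPXR mice, at 11.62, 11.96 and 11.98, and read 12.37, 11.46 and 11.87 in CARko/PXRko mice on CPA, against 12.89 to 13.38 on corn oil in these genotypes. It fell by 1.38 ± 0.22 (adjusted p = 3.3e-04) and 1.30 ± 0.22 (adjusted p = 8.1e-04), and both calls were made in every fit that left out 1 array. In wild type mice CPA replicates 2 and 3 read 12.92 and 12.95 and replicate 1 slightly more, all below the corn oil arrays (13.08 to 13.42), a difference of -0.33 ± 0.22 (adjusted p = 0.72). The difference between genotypes was -1.05 ± 0.31 for hCAR/hPXR and -0.97 ± 0.31 for CARko/PXRko against wild type, neither called (adjusted p = 0.60 and 0.41).

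Klkb1 read 11.85, 12.11 and 11.66 in hCAR/hPXR mice on CPA and 11.86, 11.44 and 11.74 in CARko/PXRko mice, below all corn oil arrays of these genotypes (12.13 to 12.72). It fell by 0.67 ± 0.18 (adjusted p = 0.035) and 0.73 ± 0.18 (adjusted p = 0.021). In wild type mice it differed by -0.20 ± 0.18 (adjusted p = 0.86). C8b fell by 0.90 ± 0.26 in the hCAR/hPXR group (adjusted p = 0.046), from 11.59, 12.04 and 11.95 to 10.75, 11.22 and 10.91. Cfb fell by 0.54 ± 0.15 (adjusted p = 0.038), from 12.59, 12.69 and 12.73 to 12.05, 12.46 and 11.89.

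These smaller calls were less stable than that of C8a. With arrays centred on their median only C8a was called in hCAR/hPXR mice, and Klkb1, C8b and Cfb had adjusted p of 0.089 to 0.091. Among the 6 fits that left out 1 array, Klkb1 was called in 2, C8b in 1 and Cfb in 1; without corn oil replicate 1 the 3 genes gave -0.59, -1.04 and -0.57 and without CPA replicate 3 -0.57, -0.87 and -0.41, none called. In CARko/PXRko mice Klkb1 was called in 3 of 6, and was lost without corn oil replicate 1 (-0.68), corn oil replicate 3 (-0.64) or CPA replicate 2 (-0.61). When only the arrays compared entered the fit, the count was 4 in wild type, 2 with the human receptors (C8a and C8b) and 0 with none. In the same fits all genes called went from 566 to 398 with the human receptors and from 702 to 136 with none.

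F9, factor IX, was the member that rose. It read 12.67, 12.70 and 12.38 in CARko/PXRko mice on CPA against 11.72, 11.36 and 11.86 on corn oil, 1.92-fold higher (0.94 ± 0.18, adjusted p = 0.0035), and was called in every fit that left out 1 array. In hCAR/hPXR mice it read 12.16, 12.51 and 12.37 against 11.60, 11.73 and 11.94 (0.59 ± 0.18, adjusted p = 0.071, or 0.020 without the muscle arrays), and in wild type mice 12.29, 12.22 and 12.33 against 11.89, 11.79 and 11.89 (0.42 ± 0.18, adjusted p = 0.39). In every genotype all CPA arrays lay above all corn oil arrays. Under DCB the same gene gave -0.41, -0.46 and -0.42 in the 3 genotypes, the last -0.20 without the muscle arrays. Compared with wild type, the larger CPA difference of F9 in CARko/PXRko was not called (0.52 ± 0.26, adjusted p = 0.67).

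With all arrays the rest of the list gave no call under CPA. C6 gave 0.31 ± 0.35 in wild type, -0.28 ± 0.35 with the human receptors and -1.11 ± 0.35 with none (adjusted p = 0.062). In CARko/PXRko mice its CPA arrays read 9.76, 9.44 and 9.36, close to the 9.54 of corn oil replicate 2, a muscle array, and below the other corn oil arrays (11.23 and 11.12). Without the muscle arrays C6 differed by -1.66 ± 0.28 there and was called (adjusted p = 0.0017), and Mbl1 was also called (-0.89 ± 0.25, adjusted p = 0.040; -0.72 and 0.070 with them). The C6 difference between CARko/PXRko and wild type was -1.43 ± 0.49 (adjusted p = 0.50), or -1.97 ± 0.38 without the muscle arrays (adjusted p = 0.054). Mbl2, not called under DCB, gave -0.20, -0.68 and -0.80 ± 0.24 (adjusted p = 0.92, 0.13 and 0.056). F2 gave -0.11, -0.04 and -0.01, Serpinc1 -0.09, 0.03 and -0.02 and Hc -0.15, -0.33 and -0.33, with no call. The fibrinogen chains differed from corn oil by -0.10 to 0.11 in the 3 genotypes. For Masp1 the probe set used gave 0.63, 0.29 and -0.19 in the 3 genotypes, but the next brightest gave -0.89, -0.66 and -0.84 and the third -0.55, -0.75 and -0.81, so no direction is given for it under CPA.

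**Figure D4:**
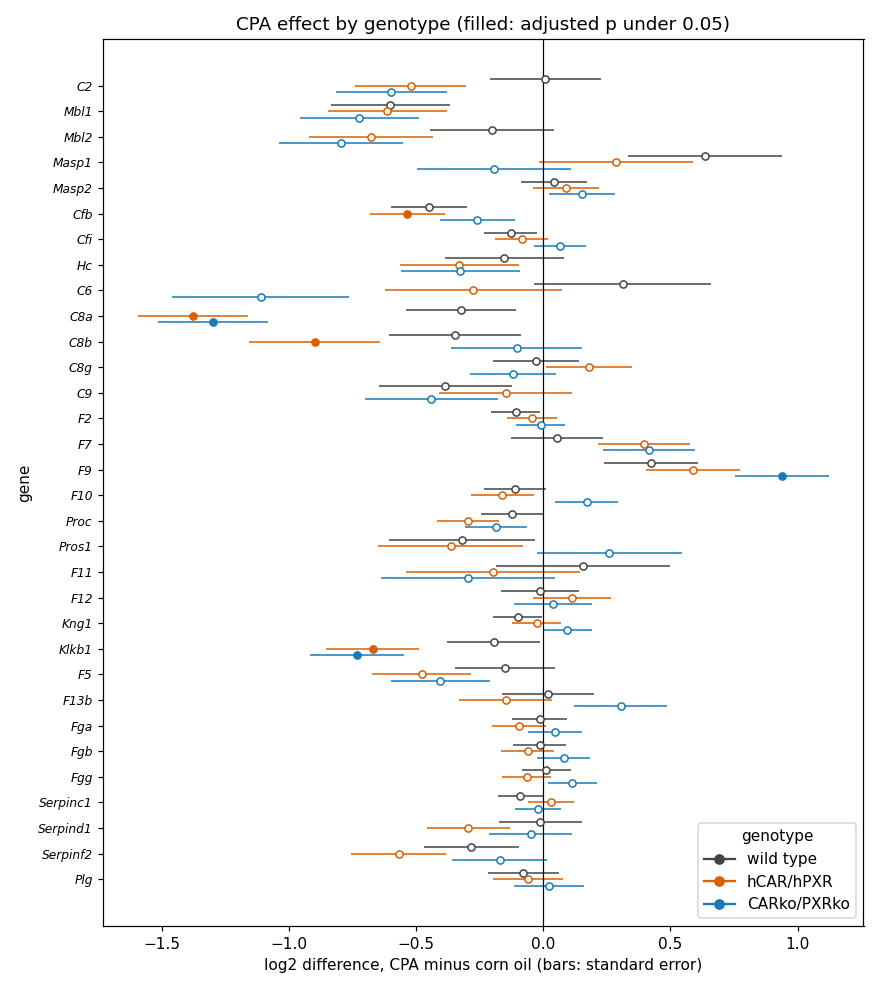
Log2 difference of CPA from corn oil (x axis) for the 32 members (y axis) in the 3 genotypes; points are differences of means of 3 arrays, bars are standard errors and filled points have an adjusted p under 0.05. Most points lie near 0; C8a, C8b, Cfb and Klkb1 have filled points on the left and F9 the single filled point on the right.

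Other genes of the cascades, from lists drawn up by function with earlier results of these data known, were partly lower too. Of 20 other complement genes tested, 11 fell and 0 rose under DCB over the 3 genotypes, and 8 fell in hCAR/hPXR mice, against 6.89% and 4.35% of all genes. Without the muscle arrays 6 of the 20 fell over the 3 genotypes (5.35% of genes): C1qa, C1qb, C1ra, C1s1, Colec10 and Colec11. C1s1 and C1ra, the proteases of the first classical component, differed by -0.64 ± 0.09 and -0.61 ± 0.10 over the 3 genotypes (adjusted p = 2.9e-05 and 1.6e-04), and the lectin Colec10 by -0.53 ± 0.10 (adjusted p = 7.6e-04). C1qa, the recognition subunit that macrophages make, differed by -0.63 ± 0.14 (adjusted p = 0.0031). Of 22 other coagulation and fibrinolysis genes, 4 fell (Hgfac, Proz, Vkorc1 and Habp2) and 1 rose, where 6.54% of all genes rose. The riser was the protein C receptor Procr (1.24 ± 0.36, adjusted p = 0.024), which read 10.20, 5.57 and 6.50 in DCB-treated wild type mice, so its mean there rests on replicate 1. Habp2 and Procr were not called without the muscle arrays (adjusted p = 0.11 and 0.14).

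Under CPA, 7 of the 20 other complement genes fell in hCAR/hPXR mice (2.90% of all genes), among them C1qa (-1.27 ± 0.24), C1qb (-1.24 ± 0.27), C1qc (-1.21 ± 0.27) and Colec11 (-1.13 ± 0.25; adjusted p = 0.0018 to 0.0084), and C1ra fell in CARko/PXRko mice (-0.63 ± 0.17, adjusted p = 0.028). In wild type mice none was called (0.633% of genes lower). Of the other coagulation genes, Serpina5, a protein C inhibitor, rose in hCAR/hPXR mice (adjusted p = 1.0e-04; 1.52% of genes rose). It read 7.57, 6.14 and 8.56 on CPA, while the corn oil arrays, at 4.44 to 4.81, lay below the array median used as the filter on dim genes, so no size is given. Serpina10 and Habp2 fell there (-0.68 ± 0.18 and -0.66 ± 0.19, adjusted p = 0.025 and 0.043; Habp2 0.053 without the muscle arrays). In CARko/PXRko mice Hrg rose (0.81 ± 0.18, adjusted p = 0.011) and tissue factor, F3, fell (-1.14 ± 0.32, adjusted p = 0.036, or 0.066 without the muscle arrays).

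Acute phase proteins are secreted by the same hepatocytes in inflammation. Of 14 such genes, 2 rose (Lcn2 and Orm2) and 2 fell (Saa4 and Itih4) under DCB over the 3 genotypes. Of all genes 6.54% rose and 6.89% fell in that contrast. The median of the 14 was 0.00, against a median of -0.42 in the members, and without the muscle arrays Itih4 was not called. Of 12 other plasma proteins of hepatocytes, 3 fell (Cp, Ambp and Serpina6), against the same 6.89%, with a median of -0.10, and 0 without the muscle arrays. Of 13 hepatocyte transcription factors and signalling genes, 1 fell, Foxa3 (-0.63 ± 0.19, adjusted p = 0.029, or 0.052 without the muscle arrays), near the 6.89% of all genes; Hnf4a gave -0.19 ± 0.15 (adjusted p = 0.46). In CPA-treated CARko/PXRko mice 5 of the 14 acute phase genes rose (2.18% of all genes), with a median of 0.70, and 4 without the muscle arrays.

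In whole liver, fewer cells of a type and less RNA per cell cannot be told apart. None of 5 hepatocyte markers was called under DCB in any genotype or over the 3, and their mean level was 14.35 to 14.57 on DCB arrays and 14.45 to 14.52 on corn oil arrays of these genotypes. Among them Alb, Ttr and Apoa1 (14.59 to 15.10) lay close to the brightest signal on an array, 15.21 to 15.34. Whether that compresses their differences was not tested, and these genes are also on the plasma protein list. Of 8 Kupffer cell markers, 6 fell under DCB over the 3 genotypes (6.89% of all genes) and 4 in hCAR/hPXR mice (4.35%). In hCAR/hPXR mice their mean level went from 9.21 to 9.48 on corn oil to 8.25 to 8.48 on DCB. In wild type it was 8.85 to 9.06 against 8.48 to 9.18, and in CARko/PXRko 8.73 to 9.03 against 8.42 to 8.52. Under CPA 2, 5 and 1 of the Kupffer markers fell in the wild type, hCAR/hPXR and CARko/PXRko groups. Of all genes 0.633%, 2.90% and 3.31% fell there. Other liver cell lists with falls under DCB over the 3 genotypes were lymphocyte and antigen-presenting cells (2 of 6, H2-Aa and Cd74) and stellate cells (2 of 7). Endothelial markers gave 0 of 7, and 6.89% of all genes fell. Leaving out the muscle arrays, 5 Kupffer, 4 lymphocyte and antigen-presenting and 2 stellate markers fell.

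Under CPA 3, 4 and 3 of the 6 lymphocyte and antigen-presenting markers fell in the wild type, hCAR/hPXR and CARko/PXRko groups. Of all genes 0.633%, 2.90% and 3.31% were called lower there, and the markers' medians were -0.78, -1.82 and -1.12. H2-Aa, H2-Ab1 and Cd74 fell in each group, and Ms4a1 also in hCAR/hPXR. On the same list Cd3e gave -0.02, -0.03 and -0.10 and Cd8a 0.07, -0.04 and 0.28, with no call. The mean level of the list, over the 8 measured, went from 6.68 to 6.87 on corn oil to 5.93 to 6.07 on CPA in wild type, from 6.94 to 7.31 to 5.53 to 5.60 in hCAR/hPXR, and from at least 6.72 to at most 5.76 in CARko/PXRko. Where C1qa, C1qb, C1qc and Colec11 fell, in the hCAR/hPXR group, 1 of 7 endothelial and 0 of 7 stellate markers fell as well. In CARko/PXRko mice 2 of 7 stellate markers fell, and 2 of 7 endothelial markers fell while 1 rose; without the muscle arrays these were 0 stellate and 1 endothelial lower. The part of these cell types in the results was not tested.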

How the data were processed

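The files hold log2 probe set values that the authors made with RMA, per the submitters' processing notes (version and settings not given in the sources used here); RMA corrects background, normalizes between arrays and summarizes probes. The deposited table had 45037 probe sets, of which 34945 were annotated to a single gene. Each gene was represented by its brightest such probe set (mean over the 30 arrays), and genes above the array median on at least 3 arrays were tested (12795). A linear model, with 1 mean for each of the 10 groups, was fitted in R 4.3.3 with limma 3.58.1 (lmFit, eBayes, two-sided, 20 residual degrees of freedom), and p-values were adjusted by the Benjamini-Hochberg method. The contrast over the 3 genotypes and the fits without muscle-bearing arrays were added after seeing the data. The members and lists were chosen with earlier results of these data known. Members described singly were the called ones, up to 12 with the smallest p per comparison, with the fibrinogen chains, Hc, F2 and Serpinc1 regardless of p (C3, also in this rule, had no probe set); others are given as ranges, counts or exceptions chosen after their values were seen. The procedure was tested on simulated data. No 2 arrays held identical values. Promoters are from RefSeq (GRCm38.p6). Precision is limited by the number of arrays.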

Additional observations from a re-analysis of the deposited data

How the results depend on the processing

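Settings other than leaving out an array changed member counts as follows. Array weights, whose estimation stopped before it converged, gave 12 members called for DCB in wild type (0 in the main setting), 10 for DCB in CARko/PXRko (0), 6 and 8 for CPA in wild type (0) and hCAR/hPXR (4), and 1 each for corn oil CARko/PXRko against wild type (0) and the CPA effect in hCAR/hPXR minus wild type (0). Fitting only the groups compared gave 2 for DCB in hCAR/hPXR (19), and 4, 2 and 0 for CPA in the same 3 genotypes (0, 4 and 3). A 75th percentile filter gave 1 for DCB and 5 for CPA in CARko/PXRko, and eBayes with trend and robust, or averaging the probe sets of a gene, gave 1 each for DCB in CARko/PXRko. Repeated quantile normalization gave 1 for DCB in wild type, and median centring gave 1 for CPA in hCAR/hPXR. Without the muscle-bearing arrays the counts were 2 for DCB in wild type and 5 for CPA in CARko/PXRko, and the median for DCB in CARko/PXRko was -0.26. The cause was not tested. Leaving out each array gave 0 to 1, 7 to 15 and 0 to 9 for DCB in the wild type, hCAR/hPXR and CARko/PXRko groups, 0 in every fit, 1 to 5 and 2 to 5 for CPA, 25 to 28 for DCB over the 3 genotypes, and 0 in every fit for the genotypes on corn oil and the differences of effects. No called result changed sign; the members' median for CPA in CARko/PXRko (-0.08), which has no test, ran from -0.14 to 0.04 when each array was left out. Genes of all kinds called for DCB in hCAR/hPXR numbered 978, from 82 (only the groups compared) to 2993 (array weights); for CPA in hCAR/hPXR 566 (398 to 1147), for CPA in CARko/PXRko 702 (136 to 715), for DCB in wild type 94 (85 to 969), for DCB in CARko/PXRko 15 (0 to 168) and for CPA in wild type 143 (133 to 1798). The share of these calls that were higher went from 43.0% to 55.1% for DCB in hCAR/hPXR and from 39.7% to 52.3% for CPA in CARko/PXRko under repeated quantile normalization, and from 34.5% to 47.6% for CPA in hCAR/hPXR under centring, while under these settings all called DCB members were lower.

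Replicate numbers did not pair the arrays: deviations of same-numbered arrays correlated with a median of 0.05, -0.04 and 0.02 for numbers 1, 2 and 3 over 45 pairs each, and 13 of 30 arrays correlated best with their own number. With the replicate number as a block, 18 members were called for DCB in hCAR/hPXR (Mbl1 lost, adjusted p = 0.057), 26 for DCB over the 3 genotypes and 4 each for CPA in hCAR/hPXR and CARko/PXRko.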
